A study of Homo sapiens with 18 samples.

Results

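The genes described here encode the DEAD and DEAH box RNA helicases, the human genes whose symbols begin with DDX or DHX. They were taken from the Ensembl identifiers of a gene count table and chosen by symbol, with 3 symbols left out beforehand, and by a filter on low counts over all 6 groups. Of 52 protein-coding genes of the family, 45 passed that filter and were tested among 16794 genes. The filter used the same counts as the tests, but no tested member passed it only through a group in which it was high, since the lowest count of any tested member in any library was 31. The cells were BxPC-3, an established human pancreatic cancer line kept in medium with fetal bovine serum, and all groups share this line. They received phosphate-buffered saline (PBS, the vehicle), hepatocyte growth factor (HGF) at 80 ng/ml or macrophage-stimulating protein (MSP) at 100 ng/ml, and RNA was collected after 1 h or 4 h. HGF activates the receptor kinase MET, and MSP activates its relative RON. Each of the 6 groups had 3 libraries. Nothing in the labels ties a library of a triplicate to its own culture, so p-values measure the spread between these libraries, which may be technical.

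DEAD and DEAH box proteins are ATPases that bind RNA and open short duplexes or strip proteins from RNA, and they take their name from a conserved amino acid motif. DEAD box proteins pry a duplex apart locally, whereas DEAH box proteins move along a single strand. Different members work at successive steps in the life of an RNA: transcription, splicing, ribosome assembly in the nucleolus, export, translation and decay. A few sense viral RNA and are themselves induced by interferon. The members were therefore grouped by role: 15 tested members act in nucleolar ribosome biogenesis, 9 in the spliceosome, 5 in transcription and other nuclear RNA processing, 5 in cytoplasmic translation and decay, 2 in mRNA export, 2 on the mitochondrial ribosome and 3 in antiviral responses. The other 4 (DDX59, DHX32, DHX40 and DHX57) were kept apart.

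Total counts ranged from 30556613 to 48477215 per library, and all 7 ductal epithelial markers looked for (such as KRT19 and EPCAM) were present. Of the markers of other cells, 3 of 6 for fibroblasts, 4 of 5 for leukocytes and 3 of 3 for acinar cells were under 1 CPM (counts scaled to library size) in every library. COL1A1, COL3A1 and LUM of the fibroblast markers, CD3E of the leukocyte markers and all 3 endothelial markers reached 1 CPM in at least 1 library. The summed level of the 3 endothelial markers was 2.40 to 2.82 CPM after HGF for 4 h and 7.52 to 8.15 CPM in the vehicle at 4 h. For the 6 fibroblast markers it was 12.4 to 13.4 CPM after HGF for 4 h and 15.9 to 18.5 CPM in the vehicle at 4 h. All marker values are scaled by library totals, without the TMM factors used for the members. Those factors were 0.84 to 0.86 in the HGF libraries at 4 h and 1.04 in the vehicle libraries at 4 h. TMM scaling would therefore narrow these gaps, and no difference in fibroblast markers is claimed. Mitochondrially encoded genes took 6.11 to 6.22% of counts after HGF for 4 h and 8.73 to 8.98% in the vehicle at 4 h. The part of these measures in the results below was not tested. The 3 libraries of MSP at 1 h differed more among themselves (chi-square per degree of freedom 7.35 to 20.5) than those of the other groups (at most 5.78).

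The 7 members that were not tested had 0 to 3 counts in any library. DDX4, DDX25, DDX43 and DDX53 are known from the germ line. The other three are broadly expressed genes: DDX39B (an mRNA export helicase, 0 counts in every library), DDX19B (also in export, at most 3) and DDX47 (nucleolar, at most 1). In the GENCODE 29 annotation (GRCh38), 30.8% of the exonic bases of DDX39B, 15.7% of those of DDX19B and 36.5% of those of DDX47 also belong to another gene on the same strand. Whether that overlap led to the missing counts was not tested. No level is drawn from these 3 genes. Of the 45 tested members 19 share exonic bases with a gene on the opposite strand, and since the strand setting of the counting is unknown, reads of such pairs cannot be told apart.

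In unstimulated cells the members spanned a wide range of levels. Per kilobase of exon (RPKM, from TMM-scaled CPM), the highest mean levels in the vehicle at 1 h were those of DDX5 (52.4 ± 1.02 RPKM, SD, n = 3), DDX17 (46.0 ± 0.87), DDX21 (37.8 ± 1.35) and DHX9 (36.7 ± 1.08). The middle member lay at 9.71 RPKM. DHX58 was the lowest at 1.06 ± 0.069 RPKM, below DDX19A (1.35 ± 0.02) and DDX51 (1.52 ± 0.11). DDX21 and DHX9 differed by less than their spread, as did DDX3X (25.9 ± 0.98) and DDX1 (25.3 ± 0.32). After HGF for 4 h the order at the top was DDX21 (186 ± 6.99 RPKM), DDX5 (124 ± 3.32), DHX9 (54.0 ± 2.12) and DDX17 (51.0 ± 1.84). DDX21 had been within the spread of DDX5 and DHX9 in the vehicle at 4 h (40.2 ± 2.49 against 39.4 ± 1.50 and 39.7 ± 1.28). Summed over the 45 members, the level was 3804 ± 46.5 CPM in the vehicle at 4 h, 6676 ± 127 CPM after HGF and 3922 ± 46.3 CPM after MSP. The nucleolar members made up 982 ± 24.6, 2340 ± 37.6 and 1071 ± 25.8 CPM of these sums. The sums are TMM-scaled and depend most on abundant members. Between vehicle and HGF at 4 h, DDX21, a nucleolar member, went from 202 to 932 CPM and DDX5 from 291 to 919 CPM.

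The comparison of HGF with vehicle at 4 h asked which helicase genes respond to HGF after several hours. Most of the family rose: 38 of 45 members were higher, 3 were lower (DHX58, DDX60 and DHX40) and 4 did not pass the test (DDX6, DHX8, DHX57 and DDX59). Among all genes tested 33.1% were higher and 34.8% were lower. The median log2 fold change was 0.52 over the members and -0.06 over all genes. Of the members 8 were higher by at least 2-fold and 1 was lower by at least 2-fold, beside 8.96% and 12.7% of all genes. These values are relative to TMM scaling, and in bulk RNA fewer cells of a type and less RNA per cell cannot be told apart. When libraries were scaled by their totals alone, the median of all genes moved to -0.35. With this scaling 26 members were higher and 8 lower, beside 21.2% and 52.0% of all genes. All 26 were also higher with TMM, 11 lost the call and 1 (DDX23) turned to lower.

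**Figure D1:**
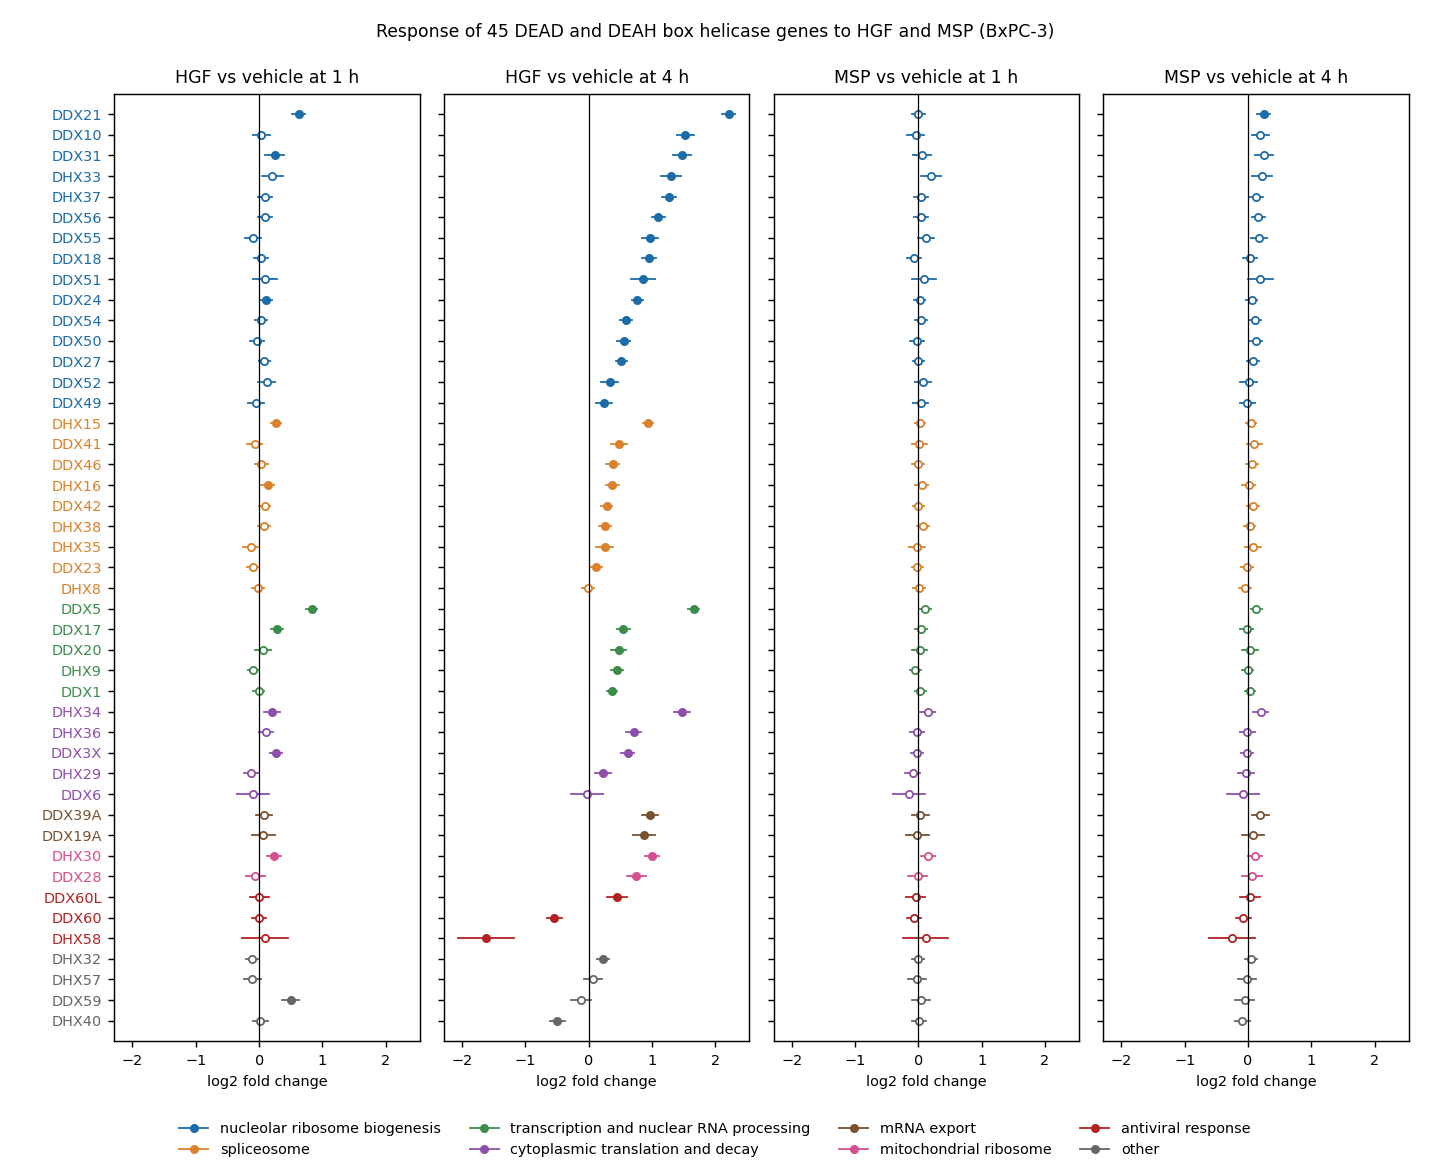
Log2 fold change (horizontal axis) of the 45 tested members (vertical axis, grouped and coloured by role) in 4 comparisons with vehicle. Points are fitted values, lines their 95% intervals, and filled points passed the adjusted p threshold of 0.05. In the HGF panel at 4 h the members lie between -1.63 and 2.21, and in the MSP panel at 4 h between -0.25 and 0.25.

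All 15 tested nucleolar members rose after HGF for 4 h, with a median log2 fold change of 0.95. With library totals 13 of them were still higher, with a median of 0.66, and DDX49 and DDX52 were not called. DDX21, a helicase that acts on ribosomal RNA transcription and processing, lies at chr10:68956128-68985073 on the plus strand (GRCh38, GENCODE 29). Its levels were 215, 190 and 200 CPM in the vehicle libraries and 918, 906 and 972 CPM in the HGF libraries. The groups were far apart, and the fold change of 4.62 was the largest of the family (log2 2.21, SE 0.050, edgeR quasi-likelihood adjusted p = 6.28e-26). DDX10, which acts on the precursor of the small ribosomal subunit (chr11:108665025-108940930, plus strand), had 26.7, 24.1 and 26.4 CPM in vehicle against 75.0, 74.3 and 73.4 CPM after HGF. That is a 2.88-fold rise (log2 1.53, SE 0.059, adjusted p = 3.2e-20).

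A 60-base stretch upstream of the RefSeq start (GRCh38.p14) is shown for each of these strongest nucleolar responders, 5′ to 3′, with capitals at the match to a motif described further on. The DDX21 stretch is chr10:68956084-68956143 and the DDX10 stretch is chr11:108664971-108665030, both on the plus strand. They end 27 and 39 bases before the RefSeq start. GENCODE 29 places the start of both genes further upstream, so 16 bases of the DDX21 stretch and 6 of the DDX10 stretch lie in GENCODE exons.
DDX21: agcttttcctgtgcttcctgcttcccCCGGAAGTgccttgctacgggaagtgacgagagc
DDX10: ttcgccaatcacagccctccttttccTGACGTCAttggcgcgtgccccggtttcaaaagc

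DDX31, a factor of large-subunit assembly (chr9:132592997-132670401, minus strand), rose from 23.0, 22.6 and 22.4 CPM to 57.1, 66.5 and 65.6 CPM. Its rise was 2.78-fold (log2 1.48, SE 0.065, adjusted p = 6.29e-19), and 6.6% of its exonic bases overlap GTF3C4 on the other strand. DHX33 had 17.9, 17.6 and 15.7 CPM in vehicle and 40.5, 42.8 and 42.4 CPM after HGF (log2 1.29, SE 0.072, adjusted p = 2.71e-16). DHX37, which frees the U3 small nucleolar RNA from the assembling small subunit, had 53.5, 54.8 and 52.2 CPM against 128, 129 and 131 CPM (log2 1.27, SE 0.050, adjusted p = 4.5e-20). DDX56, a large-subunit factor, had 66.9, 67.0 and 60.5 CPM against 133, 141 and 141 CPM (log2 1.10, SE 0.049, adjusted p = 1.24e-18). In none of these 4 genes did a vehicle library reach an HGF library. They were chosen as large rises, and the share of all genes separated in this way is not given here. The other 9 nucleolar members had smaller rises, from 0.24 for DDX49 to 0.97 for DDX55 on the log2 scale. DDX55 went from 26.5 ± 1.27 to 51.9 ± 2.55 CPM and DDX18, a large-subunit factor, from 111 ± 1.98 to 214 ± 4.38 CPM. DDX51 (10.3 ± 0.99 to 18.6 ± 1.67 CPM) and DDX24 (154 ± 5.06 to 262 ± 4.25 CPM) rose by 0.86 and 0.77. DDX54 rose by 0.59 (76.7 ± 0.99 to 115 ± 2.52 CPM) and DDX27, a partner of the PES1-BOP1-WDR12 complex, by 0.52 (105 ± 1.08 to 150 ± 3.56 CPM). DDX52 had 0.33 with TMM factors and 0.04 with library totals.

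DDX21 and its paralog DDX50 are neighbours on chromosome 10, both on the plus strand and 9280 bases apart. DDX50 rose much less: 44.5, 45.6 and 42.3 CPM in vehicle and 67.7, 61.2 and 65.0 CPM after HGF (log2 0.55, 95% interval 0.44 to 0.66, against 2.10 to 2.32 for DDX21).

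Among helicases of transcription and nuclear RNA processing all 5 were higher after HGF for 4 h, with a median log2 fold change of 0.47, and 4 of 5 with library totals. DDX5, a coregulator of transcription that also takes part in microRNA processing (chr17:64499616-64508199, minus strand), had 304, 284 and 285 CPM in vehicle and 893, 923 and 941 CPM after HGF. Its 3.16-fold rise (log2 1.66, SE 0.039, adjusted p = 1.86e-25) was the second largest of the family. Of its exonic bases 6.8% overlap CEP95 on the other strand. Its close paralog DDX17 rose less, from 348 ± 5.87 to 509 ± 18.4 CPM (log2 0.55). DHX9 rose by 0.45 and DDX20, a subunit of the SMN complex that assembles small nuclear ribonucleoproteins, by 0.47. DDX1, part of the tRNA ligase complex, rose by 0.37 and was not called with library totals (0.08, adjusted p = 0.064).

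Among cytoplasmic members 4 of 5 were higher, with a median of 0.62, and with library totals 3 were higher and 1 lower, with a median of 0.32. DHX34, a factor of nonsense-mediated mRNA decay (chr19:47349281-47382704, plus strand), had 26.1, 26.9 and 25.9 CPM in vehicle and 75.2, 73.1 and 71.3 CPM after HGF. The groups were well separated (2.78-fold, log2 1.48, SE 0.056, adjusted p = 1.82e-20). DHX36, which unwinds G-quadruplexes, rose by 0.71, and DDX3X, a translation initiation factor, by 0.62 (336, 332 and 349 CPM against 509, 511 and 537 CPM). DHX29, which helps the small subunit scan structured leaders, rose by 0.22 and had -0.07 with library totals (adjusted p = 0.26). DDX6, a repressor of translation that promotes decapping, had overlapping groups, 226, 213 and 210 CPM in vehicle and 187, 235 and 212 CPM after HGF. Its log2 fold change was -0.03 with a 95% interval of -0.29 to 0.22, and with library totals it was called lower (-0.33, adjusted p = 0.0185).

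The spliceosomal helicases moved less. After HGF for 4 h 8 of 9 were higher, with a median log2 fold change of 0.28, but with library totals 2 were higher and 2 lower, with a median of -0.01. DHX15, which takes the spent spliceosome apart and also acts in ribosome assembly, stood out with 166, 158 and 158 CPM in vehicle and 308, 304 and 312 CPM after HGF (log2 0.94, SE 0.038, adjusted p = 8.53e-20). It remained higher with library totals (0.65). DDX41 was the other that kept its call (0.48, and 0.19 with library totals). DDX23, a helicase of the U5 particle, had 123, 134 and 124 CPM against 138, 140 and 135 CPM. Its small rise of 0.12 (adjusted p = 0.0157) became a fall of -0.17 (adjusted p = 0.00043) with library totals. DHX8, which releases the spliced mRNA, had -0.01 with a 95% interval of -0.11 to 0.09.

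Both tested export helicases were higher, DDX39A by 0.97 (25.1, 24.7 and 22.8 CPM against 46.1, 48.4 and 47.4 CPM) and DDX19A by 0.87. Of the DDX19A exonic bases 23.8% are shared on the same strand with a readthrough gene, so its reads could have been split. Both helicases of mitochondrial ribosome assembly were also higher, DHX30 by 0.99 (50.7, 48.7 and 47.4 CPM against 94.2, 98.3 and 100 CPM) and DDX28 by 0.75. Of the DDX28 exonic bases 22.5% overlap DUS2 on the other strand. These 4 genes kept their calls with library totals.

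**Figure D2:**
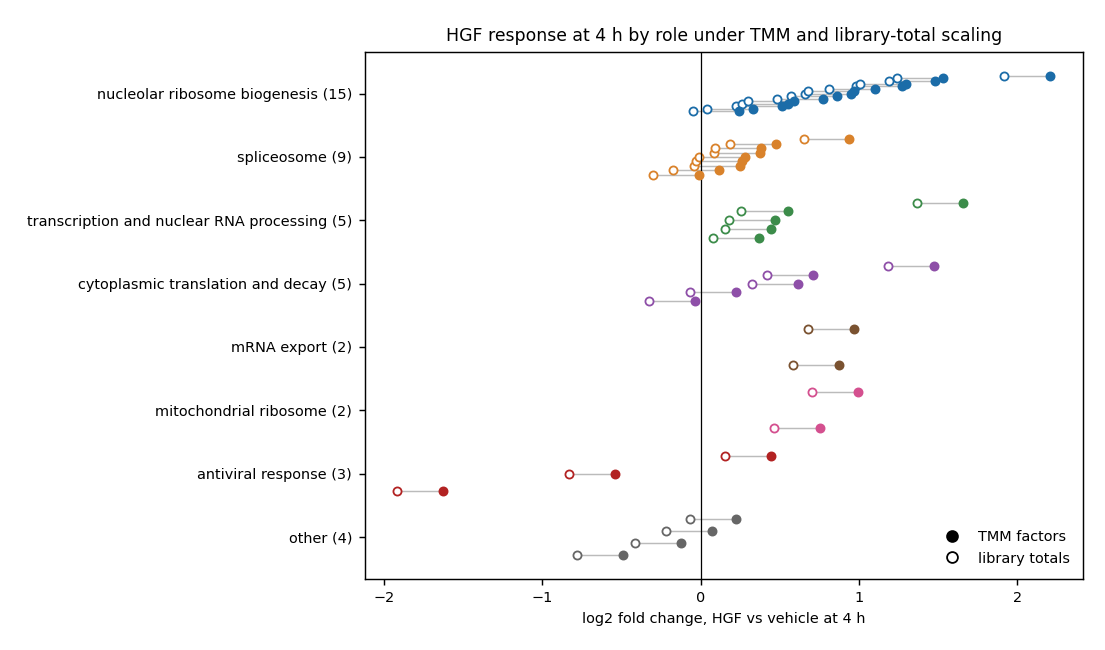
Log2 fold change of HGF against vehicle at 4 h (horizontal axis) for the members of each role (vertical axis, number of tested members in brackets), with TMM factors (filled points) and with library totals (open points), a grey line joining both values of a gene. Library totals shift every member to the left: the nucleolar median goes from 0.95 to 0.66 and the spliceosomal median from 0.28 to -0.01.

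The 3 falls after HGF for 4 h included 2 of the 3 tested antiviral helicases. DHX58, a cytoplasmic sensor of viral RNA (chr17:42101404-42112733, minus strand), had 5.78, 4.55 and 4.68 CPM in vehicle and 1.18, 2.61 and 1.11 CPM after HGF. The second HGF library was higher than the other two, but all 3 were below the vehicle libraries (3.09-fold lower, log2 -1.63, SE 0.20, adjusted p = 6.11e-08). Leaving out 1 library at a time gave log2 fold changes from -2.12 (without that library) to -1.39 (without the third HGF library). This was the tested member with the fewest reads, 31 to 232 per library. DDX60, an interferon-induced gene (chr4:168216293-168318807, minus strand), had 85.9, 87.6 and 88.1 CPM against 57.4, 61.5 and 60.8 CPM (log2 -0.54, SE 0.054, adjusted p = 2.34e-10). Its paralog and neighbour DDX60L, 37927 bases away on the same strand, went the other way: 19.1, 18.5 and 20.9 CPM in vehicle and 27.5, 25.5 and 26.4 CPM after HGF (log2 0.44, SE 0.072, adjusted p = 3.03e-06). With library totals the DDX60L value was 0.15 and not called (adjusted p = 0.065), while DDX60 stayed lower (-0.83). DHX40 also fell, from 59.3, 57.4 and 60.4 CPM to 43.4, 37.7 and 44.6 CPM (log2 -0.49, SE 0.055, adjusted p = 2.36e-09).

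Stretches before the RefSeq starts of both paralogs are shown because they hold the same kind of repeat although the genes moved in opposite directions with TMM factors. The DDX60 stretch is chr4:168318789-168318848 and the DDX60L stretch chr4:168480523-168480582, both on the minus strand of GRCh38.p14 and both ending upstream of the RefSeq start. Against GENCODE 29 they are not wholly upstream: 19 bases of the DDX60 stretch lie in a GENCODE exon, and the DDX60L stretch lies inside the longer GENCODE span of that gene (chr4:168356735-168537786), outside its exons. Capitals mark the letters GAAA, any 2 bases and GAAA again, a repeat of the type that interferon regulatory factors bind. In the third stretch capitals mark CACGTG. The DHX40 stretch (chr17:59565433-59565492, plus strand) is shown because a gene that fell holds the same CACGTG letters as several that rose.
DDX60: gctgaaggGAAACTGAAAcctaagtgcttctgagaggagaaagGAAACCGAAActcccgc
DDX60L: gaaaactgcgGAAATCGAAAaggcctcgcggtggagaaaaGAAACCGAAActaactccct
DHX40: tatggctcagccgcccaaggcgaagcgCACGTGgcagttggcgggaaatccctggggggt

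Of the 45 tested members 40 matched a RefSeq promoter of 300 bases (250 before the start and 50 after it). Both strands were searched for 4 motifs, which do not contain one another. CACGTG, the E-box bound by MYC and related factors, was in 8 of 40 members (20.0%), against 9.63% of the 11460 promoters of tested genes and 7.26% of 35116 promoters in all. The 8 were DDX5, DDX31, DDX54, DHX32, DHX34, DHX35, DHX37 and DHX40, of which DHX40 was lower and the rest higher after HGF for 4 h. CCGGAAGT, an ETS-type motif, was in 9 of 40 (22.5%), against 8.16% and 4.14%. TGACGTCA, the cyclic AMP response element, was in 5 (12.5%), against 3.25% and 1.85%, and DDX10 held it at 2 places. The GAAA repeat (2 copies of GAAA with 2 bases between them) was in 3 (7.5%: DDX60, DDX60L and DHX15), against 2.77% and 3.57%. These are letter matches within a window, and binding was not measured.

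At 1 h HGF gave a smaller response. With TMM factors 11 of 45 members were higher and 0 lower by edgeR, beside 13.8% of all genes higher and 7.16% lower. At an unadjusted p under 0.05, 5 were lower, and DESeq2 called 1 lower. Shares of all genes for those counts are not given here. The median log2 fold change was 0.07 over the members and -0.00 over all genes. With library totals 6 were higher and 12 lower, beside 9.07% and 21.4% of all genes. The 6 higher in both settings were DDX3X, DDX5, DDX17, DDX21, DDX59 and DHX15. DDX5 had 385, 395 and 380 CPM in vehicle and 707, 683 and 671 CPM after HGF, a 1.78-fold rise (log2 0.83, SE 0.038, adjusted p = 1.52e-17). DDX21 had 190, 197 and 183 CPM against 287, 294 and 298 CPM, a 1.54-fold rise (log2 0.63, SE 0.048, adjusted p = 4.77e-12). In both genes every HGF library was above every vehicle library. Both were chosen for the size of their rise, and the share of all genes so separated is not given here.

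DDX59 was the third largest rise at 1 h: 17.9, 19.1 and 19.8 CPM in vehicle and 27.6, 26.6 and 26.1 CPM after HGF (log2 0.50, SE 0.064, adjusted p = 2.77e-07). At 4 h its groups overlapped, with 16.7 ± 1.09 CPM in vehicle and 15.4 ± 0.58 CPM after HGF (log2 -0.12, 95% interval -0.28 to 0.03), though library totals gave a fall of -0.42 there. DDX17 (0.28, SE 0.045, adjusted p = 1.04e-05) and DDX3X (0.27, SE 0.045, adjusted p = 2.58e-05) also rose at 1 h. The remaining calls were DHX15 (0.26), DDX31 (0.24), DHX30 (0.23), DHX34 (0.20), DHX16 (0.13) and DDX24 (0.11). All but DHX15 of these 6 were lost with library totals. By role, 3 of 15 nucleolar, 2 of 9 spliceosomal, 2 of 5 nuclear and 2 of 5 cytoplasmic members were higher at 1 h with TMM factors. With library totals the nucleolar members had 1 higher and 3 lower, the spliceosomal 1 and 4, the nuclear 2 and 2, the cytoplasmic 1 and 1 and the 4 kept apart 1 and 2.

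**Figure D3:**
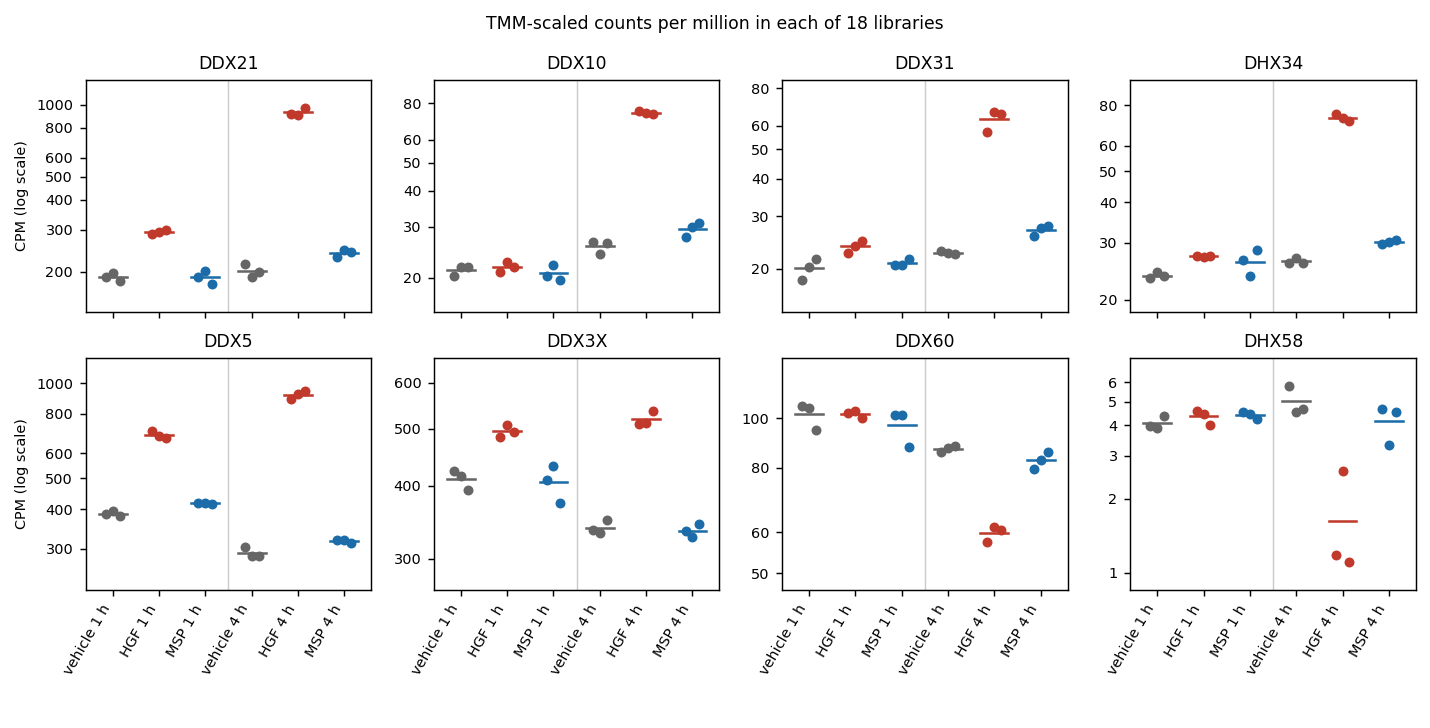
TMM-scaled CPM on a log axis for 8 members in the 6 groups (horizontal axis), with 1 point per library and a bar at the mean of 3 libraries. DDX21 and DDX5 were higher after HGF at both times, DDX10 lay between 73.4 and 75.0 CPM after HGF for 4 h and below 31 CPM in every other library, and DHX58 was lower after HGF at 4 h with 1 library at 2.61 CPM.

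The test of the change in the HGF response from 1 h to 4 h called 38 members higher and 4 lower, beside 26.8% and 26.4% of all genes, with a median of 0.44 over the members and -0.04 over all genes. It shares its libraries with the comparisons at each time, so it adds no independent evidence to them. The largest positive changes were in DDX21 (1.58, SE 0.068, adjusted p = 3.37e-18), DDX10 (1.50, SE 0.085, adjusted p = 2.27e-15), DHX34 (1.28), DDX31 (1.23) and DHX37 (1.18). The 4 negative ones were DHX58 (-1.71, SE 0.27, adjusted p = 3.64e-06), DDX59 (-0.62), DDX60 (-0.55) and DHX40 (-0.51). DDX10 illustrates the late pattern: its HGF libraries at 1 h had 20.9, 22.7 and 21.8 CPM, among vehicle libraries of 20.4, 21.8 and 21.8 CPM. DDX5 was already up at 1 h, and its difference from vehicle was larger at 4 h by 0.83 on the log2 scale (SE 0.054, adjusted p = 4.63e-14). Its level after HGF went from 687 ± 18.7 CPM at 1 h to 919 ± 24.6 CPM at 4 h. In vehicle it fell from 387 ± 7.54 to 291 ± 11.1 CPM, so the value of 0.83 holds both changes.

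Few helicase genes passed the test after MSP. The HGF and MSP comparisons at each time share the same 3 vehicle libraries. At 1 h edgeR called 0 members in either direction, beside 0.78% of all genes higher and 0.0536% lower. DESeq2 also called 0, and 5 members had an unadjusted p under 0.05, all of them higher. The share of all genes at that unadjusted threshold is not given here. The log2 fold change was above 0 in 55.6% of the members and 53.0% of all genes. The 3 smallest p-values were those of DHX30 (log2 0.15, 95% interval 0.04 to 0.26, adjusted p = 0.293), DDX5 (0.11, 0.03 to 0.19, adjusted p = 0.322) and DHX33 (0.20, 0.03 to 0.36, adjusted p = 0.442). DDX21 had 190, 202 and 177 CPM after MSP for 1 h, which overlaps its vehicle libraries.

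At 4 h DDX21 was the 1 member higher after MSP and 0 were lower by edgeR, beside 0.774% and 0.292% of all genes. By DESeq2, or at an unadjusted p under 0.05, 0 were also lower. DDX21 had 231, 247 and 241 CPM after MSP against 215, 190 and 200 CPM in vehicle. Every MSP library was above every vehicle library, but the rise was 1.19-fold (log2 0.25, SE 0.048, adjusted p = 0.00883). This call rests on few libraries: without the second vehicle library the adjusted p was 0.0929, without the third 0.0851 and without the second MSP library 0.107. At an unadjusted p under 0.05 there were 13 members, all higher, among them DDX31 (0.25, adjusted p = 0.0632), DHX34 (0.20, adjusted p = 0.0952), DDX5 (0.13, adjusted p = 0.112) and DDX10 (0.19, adjusted p = 0.127). Again no share of all genes at that unadjusted threshold is given here. Log2 fold changes were above 0 in 68.9% of the members and 49.1% of all genes. DESeq2 called 4 members higher, and its share of all genes is not given here. For the members other than DHX58 the 95% intervals of the MSP effect at 4 h lay between -0.33 and 0.39 on the log2 scale. No member changed its MSP response from 1 h to 4 h by edgeR (0 higher and 0 lower), beside 0.0476% and 0.274% of all genes. DESeq2 also called 0, and 4 members had an unadjusted p under 0.05. Shares of all genes for those counts are not given here.

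The ligands were also compared directly, each at its own dose. At 1 h 7 members were higher after HGF than after MSP and 1 was lower, beside 11.4% and 6.36% of all genes. The largest differences were in DDX5 (0.72, SE 0.038, adjusted p = 7.28e-16), DDX21 (0.63, SE 0.048, adjusted p = 6.03e-12) and DDX59 (0.45, SE 0.064, adjusted p = 1.64e-06). DDX55, a large-subunit factor, was lower after HGF (23.0, 23.3 and 21.8 CPM against 26.7, 26.5 and 26.1 CPM, log2 -0.22, adjusted p = 0.00688). Without the third HGF library its adjusted p was 0.0557. With library totals 6 were higher and 10 lower, beside 7.72% and 18.5% of all genes. At 4 h 38 members were higher after HGF and 3 lower, beside 32.7% and 33.8% of all genes. With library totals 25 were higher and 9 lower, beside 19.8% and 53.4% of all genes. DDX23, DDX42 and DHX32 turned from higher to lower between these scalings. DDX21 differed by 1.96 (SE 0.049, adjusted p = 1.03e-24), DDX5 by 1.53 (SE 0.039, adjusted p = 1.55e-24) and DDX10 by 1.33 (SE 0.058, adjusted p = 7.6e-19). DHX58 (-1.37, SE 0.20), DDX60 (-0.47, SE 0.054) and DHX40 (-0.40, SE 0.054) were lower after HGF. The doses of the ligands differ in mass per volume, so this compares the treatments and not the receptors.

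Vehicle-treated cells also changed between 1 h and 4 h. At 4 h 9 members were higher and 5 lower, beside 10.9% and 9.99% of all genes. With library totals 7 were higher and 7 lower, beside 8.77% and 12.2% of all genes. The higher ones were mostly nucleolar (6 of 9), led by DHX33 (12.5, 12.9 and 12.7 CPM at 1 h, 17.9, 17.6 and 15.7 CPM at 4 h, log2 0.43, SE 0.076, adjusted p = 0.000173), DHX37 (0.36, SE 0.051, adjusted p = 9.03e-06) and DDX10 (0.27, SE 0.061, adjusted p = 0.00203). The lower ones were DDX5 (-0.41, SE 0.038, adjusted p = 7.83e-09), DDX17 (-0.40, SE 0.045, adjusted p = 2.1e-07), DDX3X (-0.28, SE 0.046, adjusted p = 7.02e-05), DDX60 (-0.22) and DDX20 (-0.17). For DDX17 the vehicle libraries went from 457, 470 and 453 CPM to 344, 355 and 347 CPM. With TMM factors the HGF libraries of DDX17 at 4 h, 494, 530 and 505 CPM, were above both sets. With library totals they had a mean of 432 ± 11.7 CPM, above the vehicle at 4 h (361 ± 6.53 CPM) and below the vehicle at 1 h (485 ± 10.9 CPM).

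Genes that work beside the helicases were read from lists chosen with earlier results of these data known. Their counts are therefore descriptive and give no independent support. Of 36 tested ribosome biogenesis factors, 35 rose after HGF for 4 h, with a median log2 fold change of 1.44 (1.15 with library totals). The exception was NHP2 (0.10, and -0.19 and lower with library totals). Some listed genes had at most 2 counts in any library and no test. They were NOP2 and PPAN here, EIF4A1 among the other helicases and IRF7 among the interferon-response genes. What led to these missing counts was not tested. NOP56, a core protein of small nucleolar ribonucleoproteins, had 158 ± 7.85 CPM in vehicle, 561 ± 18.7 CPM after HGF and 196 ± 9.73 CPM after MSP at 4 h. DKC1, a pseudouridine synthase, rose by 1.55 and NIP7, a ribosome assembly factor, by 1.84 after HGF. At 1 h 16 of the 36 rose after HGF, beside 13.8% of all genes higher and 7.16% lower. With library totals 14 were higher and 4 lower, beside 9.07% and 21.4% of all genes. After MSP for 4 h 11 rose, with a median of 0.15.

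The spliceosome proteins were more mixed: 16 of 26 rose and 5 fell after HGF for 4 h (9 and 10 with library totals), with a median of 0.29. SF1, which recognises the branch point, rose by 1.11 (283 ± 6.91 to 610 ± 7.95 CPM), SNRPD1, a core Sm protein, by 0.94 and PRPF4, of the U4/U6 particle, by 0.83. The 5 that fell were SLU7, a factor of the second splicing step (-0.72, 53.1 ± 3.49 to 32.3 ± 1.93 CPM), CRNKL1 and XAB2 (both -0.24), GPATCH1 (-0.18) and SNRPA (-0.13). Of 15 export proteins 8 rose and 2 fell (3 and 7 with library totals), led by NXT1, a partner of the export receptor (1.33), and the falls were in THOC6 (-0.43) and GLE1 (-0.30). Of 15 mRNA decay proteins 9 rose and 3 fell (7 and 7 with library totals), and PATL1 and UPF1 rose by 0.47 and 0.46. The falls were in XRN1, the cytoplasmic 5′ to 3′ exonuclease (-0.44), DCP2, the decapping enzyme (-0.33), and CNOT1 (-0.10). Among 10 other helicases of the same superfamily outside the DDX and DHX names, 7 rose and 3 fell (4 and 3 with library totals, 7 and 1 with DESeq2), with a median of 0.39. EIF4A3, of the exon junction complex, rose by 0.81 and DICER1, which makes microRNAs, by 0.70. IFIH1, another sensor of viral RNA, fell by 1.44 (13.8 ± 1.09 to 5.10 ± 0.16 CPM).

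The interferon-response genes were mostly lower, as were DHX58 and DDX60. The third antiviral member, DDX60L, was higher (0.44) and was not called with library totals. After HGF for 4 h 8 of 10 fell, with a median of -0.64, and all 10 had values below 0. IFIT2 fell by 2.52 (34.3 ± 2.40 to 5.96 ± 0.25 CPM), IFIT3 by 1.91 and OASL by 1.00, while ISG15 (-0.07) did not pass the test. After MSP for 4 h 2 of 10 fell, IFIT2 (-0.38) and IFIT3 (-0.24). That count was 1 with library totals, 3 with DESeq2 and 4 with only the groups compared. The main counts, 8 of 10 after HGF and 2 of 10 after MSP, have these shares beside them. Among all genes 33.1% were higher and 34.8% lower after HGF for 4 h, and 0.774% and 0.292% after MSP. With library totals all 10 were called lower after HGF for 4 h, beside 21.2% of all genes higher and 52.0% lower.

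**Figure D4:**
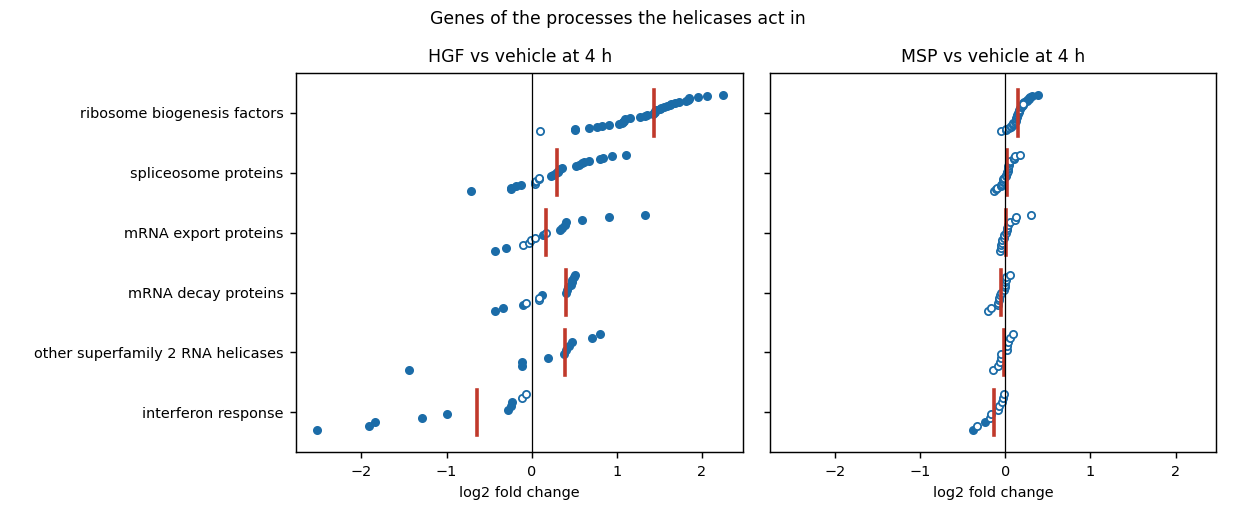
Log2 fold change (horizontal axis) of the tested genes of 6 lists (vertical axis) for HGF (left) and MSP (right) against vehicle at 4 h. Each point is a gene, filled where the adjusted p passed 0.05, and the red bar is the list's median, 1.44 for ribosome biogenesis factors and -0.64 for interferon-response genes after HGF.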

How the data were processed

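RNA of BxPC-3 cells was sequenced in 18 libraries, 3 in each of 6 groups, and each library was run in 2 lanes. The deposited values are whole-number counts per gene. STAR, Subread and its counter featureCounts are named, without versions, per the submitters' processing notes. Strand setting, annotation release and build remain not given in the sources used here, which leaves overlapping genes uncertain. Members were found through a table of gene names and GENCODE 29.

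Genes were kept by filterByExpr of edgeR 4.0.16 (minimum count 10, minimum total 15), scaled by TMM factors and fitted with the robust quasi-likelihood model. The 18 libraries entered 1 fit with a mean for each group, which leaves 12 residual degrees of freedom, and the biological coefficient of variation was 5.23%. Benjamini-Hochberg adjustment ran over the 16794 genes in each of 9 comparisons, with a threshold of 0.05. The SE is the absolute log2 fold change divided by the square root of F. CPM and RPKM were computed from the counts, TMM factors and GENCODE exon lengths. The CPM of the cell type markers used library totals alone. Alternatives were library totals, RLE size factors, DESeq2 1.42.0, no filter, only the groups compared, a replicate block, and each library left out. Names with full statistics follow a rule: the 8 largest rises after HGF for 4 h and all falls, 5 after HGF for 1 h, 5 each way for its change, 3 for other comparisons. Members and gene lists were chosen with earlier results of these data known. DHX15 and DDX60L, given full statistics after HGF for 4 h, and other genes outside the rule were chosen after their values were seen. The test code was checked on simulated data.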

Additional observations from a re-analysis of the deposited data

Results flagged for a closer look

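The test of the change in the HGF response from 1 h to 4 h (an interaction of ligand and time in edgeR) called 42 members. Of these, 38 were higher and 4 lower, beside 26.8% and 26.4% of all genes, and 9 are listed here. The HGF response was more positive at 4 h for DDX21 (1.58 on the log2 scale), DDX10 (1.50), DHX34 (1.28), DDX31 (1.23) and DHX37 (1.18). It was more negative for DHX58 (-1.71), DDX59 (-0.62), DDX60 (-0.55) and DHX40 (-0.51). These are the 5 largest positive and all 4 negative values among 42 members called in that test, and each kept its call and direction with library totals, RLE size factors, DESeq2, no filter, only the groups compared, the replicate block and each library left out. DDX59 is the member whose rise was seen at 1 h (0.50) and not at 4 h (-0.12). DDX60 and DDX60L, paralogs side by side on chromosome 4, moved in opposite directions after HGF for 4 h (-0.54 and 0.44), although with library totals the second value fell to 0.15 and was not called. DDX21 and its neighbour DDX50 on chromosome 10 rose by different amounts (2.21 and 0.55).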

How the results depend on the processing

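Of the recounts of members called under another setting, 218 stayed within 1.5 times the main count and 22 did not, and of the repeats for the named members 590 kept call and direction, 4 lost the call and 0 reversed. Library totals moved most: HGF against vehicle at 1 h had 6 higher and 12 lower, at 4 h 26 higher and 8 lower, MSP against vehicle at 4 h 2 higher, and HGF against MSP 10 lower at 1 h and 25 higher and 9 lower at 4 h. The count lower after HGF for 1 h was 1 with RLE size factors, with DESeq2 and with only the groups compared. The count higher after MSP for 4 h was 2 without the filter, 3 with only the groups compared and 4 with DESeq2. Vehicle over time had 8 lower with only the groups compared, and the change of the MSP response 1 higher without the filter. Leaving out 1 library at a time gave 0 to 2 higher after MSP for 4 h, 0 to 1 lower for HGF against MSP at 1 h and 0 to 1 higher for the change of the MSP response (1 without MSP at 1 h replicate 2). The 4 lost calls are those of DDX21 after MSP for 4 h and DDX55 at 1 h given above. Of the recounts of the gene lists of other proteins, 255 stayed within 1.5 times and 33 did not. With the replicate number as a block, 2 members were higher after MSP for 4 h, and no other count of members moved by over 1.5 times. Deviations of libraries with the same number were weakly correlated, mostly above 0 (-0.046 to 0.093). Libraries with different numbers gave -0.14 to 0.12. Such weak correlations cannot tell whether the numbers pair the samples. A count of 0 allows up to 3 counts in a library, which covers counting error only. DHX58 had the fewest reads of the tested members and the widest interval for HGF against vehicle at 4 h.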
